A study of Mus musculus with 31 samples.

Results

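A set of 135 genes, of 24411 entries in the deposited count table, was higher in Ly6C-high blood monocytes of tumor-bearing mice than in those of healthy mice. In Ly6C-high monocytes taken from the tumors these genes were lower than in blood of tumor-bearing mice. Their tumor level was below that of healthy blood for some and above it for others. The tumors were Lewis lung carcinomas (LLC), grown from a mouse lung cancer cell line that takes in C57BL/6 mice. The members were chosen from these measurements on 4 conditions. Their mean level in LLC blood was at least 10 CPM, a gene's counts scaled to a common library total and not to its length, so that CPM values are compared between libraries and not between genes. The LLC blood mean was at least 1.5 times the healthy blood mean and the tumor mean was at most 0.5 times the LLC blood mean, each after adding 1 CPM. Every LLC blood library lay above every healthy blood and every tumor library. The levels that met these conditions are therefore given as a description, with no test. For a member raised less than 2-fold in LLC blood, the conditions also fix the tumor mean below the healthy blood mean.

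RNA-seq libraries were made from C57BL/6J mice in 3 groups of 3: healthy blood, LLC blood (from mice with a subcutaneous LLC tumor) and LLC tumor (from LLC tumors themselves). In all groups the cells were sorted as CD11b+ Ly6G- Ly6C-high MHC-II- monocytes, and the labels name no engineered allele or drug treatment. The labels do not say how many mice a library stands for or whether LLC blood and tumor libraries came from the same mice, so p-values measure the spread between these libraries. The other 22 of the 31 samples, which profile chromatin, were not analysed here. In the tables the blood columns are headed BM, taken here to mean blood monocyte, since the descriptions of the samples give blood as their origin.

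Ly6C-high monocytes are the classical monocytes of the mouse. They leave the bone marrow, circulate briefly and enter inflamed tissue and tumors, where they can turn into macrophages or dendritic cells. They move by remodelling actin under the control of small GTPases, which are switched on by exchange factors (GEFs, Dock proteins) and off by GTPase-activating proteins. They also make complement proteins, carry receptors for cytokines such as IL-6, and hold large families of interferon-inducible GTPases that act against intracellular microbes.

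Totals ran from 10457492 to 20706412 counts per library, and 3 counts, the level below which a gene was treated as at the floor, corresponded to 0.145 to 0.287 CPM. No member was at or under that floor in all libraries of a group. None of the 135 members was in any of 12 lists of cell type markers. These lists name 10 to 20 genes each, and the neutrophil list leaves out the granule protein genes Lcn2 and Prtn3, which are members. The summed level of 10 monocyte markers was 12579 to 13656 CPM for healthy blood, 12774 to 13147 CPM for LLC blood and 8343 to 10065 CPM for tumor. The 12 macrophage markers summed to 1726 to 2063 CPM for healthy blood, 1138 to 1212 CPM for LLC blood and 5497 to 8110 CPM for tumor. The 13 markers of LLC cells, fibroblasts and endothelium summed to 879 to 3752 CPM in tumor, to 415 CPM in LLC blood 1 and to 6.43 and 7.83 CPM in LLC blood 2 and 3, against 27.9 to 57.4 CPM in healthy blood, with Epcam at or under the floor. The 15 erythroid markers summed to 235 to 667 CPM in healthy blood, 182 to 943 CPM in LLC blood and 7.31 to 11.5 CPM in tumor, so both blood groups stood above tumor. The 12 platelet markers summed to 45.1 to 51.6 CPM, 20.8 to 23.9 CPM and 147 to 228 CPM in the same order. The 12 T cell markers summed to 52.2 to 214 CPM, 17.2 to 20.3 CPM and 109.7 to 136 CPM, so that LLC blood was the lowest group for both. The 10 NK cell markers summed to 222 to 492 CPM, 38.4 to 58.1 CPM and 7.6 to 17.2 CPM. Markers of Ly6C-low monocytes (10) summed to 2045 to 2111 CPM, 1603 to 2166 CPM and 936 to 1322 CPM. Dendritic cell markers (10) summed to 234 to 259 CPM, 98.9 to 149 CPM and 66.4 to 113 CPM. B cell markers (9 in the table) summed to 23.7, 224 and 32.6 CPM in healthy blood 1 to 3. Their sums were 32.6 to 38.2 CPM in LLC blood and 6.23 to 11.1 CPM in tumor. Eosinophil, basophil and mast cell markers summed to at most 4.35 CPM in a library. Neutrophil markers (19 in the table) summed to 1018 to 1143 CPM in blood and 1081 to 1228 CPM in tumor, with BC100530, Stfa1, Stfa2 and Stfa3 at or under the floor. The part of these other cells in the members' levels was not tested, and in bulk libraries fewer cells that express a gene cannot be told apart from less RNA per cell.

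The promoters of the 3 members with the highest LLC blood CPM that have an entry in the RefSeq promoter table are shown because their CPM values are among the highest of the set. Each window runs 5′ to 3′ from 250 bases before the annotated start to 50 bases after it, and capitals mark a match to TTGCNNAA, a motif bound by C/EBP factors, on either strand. C3 and Ifi30 each hold a match, and Akap13 holds none.
C3 promoter, GRCm38.p6 chr17:57228087-57228386, strand minus: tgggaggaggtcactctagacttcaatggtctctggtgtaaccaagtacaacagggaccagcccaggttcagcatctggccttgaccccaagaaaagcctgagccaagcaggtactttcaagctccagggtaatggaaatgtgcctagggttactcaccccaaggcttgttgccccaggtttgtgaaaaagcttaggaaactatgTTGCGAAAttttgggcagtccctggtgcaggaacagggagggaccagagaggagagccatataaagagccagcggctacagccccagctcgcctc
Akap13 promoter, GRCm38.p6 chr7:75455284-75455583, strand plus: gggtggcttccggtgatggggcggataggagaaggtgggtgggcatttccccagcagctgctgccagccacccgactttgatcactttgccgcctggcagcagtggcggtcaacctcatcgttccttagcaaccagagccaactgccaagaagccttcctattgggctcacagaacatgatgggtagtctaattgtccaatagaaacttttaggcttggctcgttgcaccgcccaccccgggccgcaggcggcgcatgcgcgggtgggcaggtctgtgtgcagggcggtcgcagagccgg
Ifi30 promoter, GRCm38.p6 chr8:70766614-70766913, strand minus: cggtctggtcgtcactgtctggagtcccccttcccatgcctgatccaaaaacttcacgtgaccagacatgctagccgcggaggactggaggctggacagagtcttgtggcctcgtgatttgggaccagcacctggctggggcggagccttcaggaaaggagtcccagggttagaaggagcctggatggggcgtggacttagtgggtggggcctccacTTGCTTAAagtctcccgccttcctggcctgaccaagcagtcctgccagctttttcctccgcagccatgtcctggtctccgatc

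Of the 108 members with a promoter entry, 12 (11.1%) held TTGCNNAA, beside 8.37% of the 9826 promoters of tested genes. The PU.1 motif GAGGAAG stood in 15.7% of member promoters and 13.9% of all. The hypoxia response core ACGTG stood in 20.4% and 26% of them. The median number of CpG dinucleotides was 16.5 in member promoters, 21 in all tested promoters and 23 in promoters of genes raised in LLC blood that are not members, while the median GC content was 60.5%, 60.7% and 62.3%. A match is a string of letters and not a site, and these shares were not tested.

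The set was a part of a wider rise in the blood. By the blood conditions of the rule alone, 717 genes were raised in LLC blood. In tumor, 525 of them (73.2%) lay between 0.5 and 2 times their LLC blood level, 55 (7.67%) stood at 2 times or more, and 137 (19.1%) at 0.5 times or less. The conditions on overlap then left the 135 members, 18.8% of the raised genes. Together the members held 1.09%, 1.11% and 1.02% of all counts in healthy blood 1 to 3, 1.9%, 2.11% and 2.1% in LLC blood, and 0.599%, 0.724% and 0.717% in tumor. LLC blood 1 had the lowest summed level among LLC blood libraries. It was the highest library for 17 members, LLC blood 2 for 56 and LLC blood 3 for 62. The median ratio of LLC blood to healthy blood was 1.78 and the median ratio of tumor to LLC blood was 0.361.

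Secreted and innate immune proteins held the member with the highest CPM. C3, the central complement component (chr17:57203967-57228136), stood at 977, 1004 and 1002 CPM in healthy blood, 1686, 1595 and 1562 CPM in LLC blood and 596, 541 and 607 CPM in LLC tumor. The LLC blood libraries were the highest and the tumor libraries the lowest, with no overlap of the 3 groups. The rule sets this order of the means for a rise of less than 2-fold. Pros1, the anticoagulant protein S, had group means of 75, 116 and 48.4 CPM. C1rl, related to the complement protease C1r, stood at 15.3, 19 and 17.4 CPM in healthy blood, 43.9, 57.7 and 55.1 CPM in LLC blood and 13.5, 16 and 16.3 CPM in LLC tumor. Fcnb, a ficolin that recognises microbial sugars, had means of 3.62, 16.4 and 4.23 CPM, and Lbp, which hands lipopolysaccharide to CD14, had means of 8.28, 27.2 and 8.16 CPM. For C1rl, Fcnb and Lbp the tumor and healthy blood libraries overlapped. Lcn2, the iron-scavenging lipocalin of neutrophil granules (chr2:32384637-32387739), stood at 4.86, 9.52 and 3.25 CPM in healthy blood, 37.7, 90.2 and 70.8 CPM in LLC blood and 11.7, 35.1 and 22.2 CPM in LLC tumor. Its tumor libraries lay above every healthy blood library, and the highest came within a factor of 1.07 of the lowest LLC blood library.

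Most other genes of the complement and coagulation list were higher in tumor than in LLC blood. In LLC blood against healthy blood, 14% of the 12337 tested genes were called higher and 9.61% lower (edgeR quasi-likelihood test, Benjamini-Hochberg adjusted p under 0.05). In tumor against LLC blood, 29.6% were called higher and 31.7% lower. Of 25 tested genes of this list that are not members, 4 rose and 4 fell in LLC blood, and 19 rose and 4 fell in tumor against LLC blood. F10, coagulation factor X, had means of 161, 371 and 678 CPM for healthy blood, LLC blood and tumor, and Cfp, properdin, had 139, 208 and 432 CPM. F7, coagulation factor VII, had 2.96, 6.09 and 37.3 CPM. These 3 rose in LLC blood and rose again in tumor. F5, coagulation factor V, rose from 56.4 to 114 CPM in LLC blood and fell to 81.4 CPM in tumor (adjusted p = 0.0387), less far than the rule asks for. Cr1l, F13a1 and Proz also fell in tumor against LLC blood. The listed complement genes C1qa, C1qb and C1qc fell in LLC blood and rose in tumor, with a tumor mean of 191 CPM for C1qa, a macrophage gene, against 1.76 CPM in LLC blood.

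Among granule proteins, Prtn3 and Serpinb1a were members beside Lcn2. Prtn3, the serine protease proteinase 3, stood at 7.15, 12.1 and 7.17 CPM in healthy blood, 29.7, 56.9 and 46.7 CPM in LLC blood and 5.15, 12.4 and 9.25 CPM in LLC tumor. LLC blood 1 was the lowest of its group, and tumor and healthy blood libraries overlapped. Serpinb1a, an inhibitor of neutrophil serine proteases, stood at 21.9, 30.4 and 25.7 CPM in healthy blood, 44.2, 49.7 and 47 CPM in LLC blood and 4.78, 9.54 and 10.1 CPM in LLC tumor, with tumor below healthy blood in every library. Its rise was less than 2-fold, so the rule sets this order of the means. Of 21 tested granule list genes that are not members, 10 rose and 5 fell in LLC blood, and 3 rose and 15 fell in tumor against LLC blood. Elane, neutrophil elastase, rose from 0.45 to 5.66 CPM in LLC blood (log2 fold change 3.60 ± 0.62, adjusted p = 0.00363, edgeR) and fell to 0.378 CPM in tumor (adjusted p = 0.000896). It lay under the level the rule asks for. Adam8, a membrane protease, and Itgam, the CD11b integrin chain, rose in LLC blood and rose again in tumor.

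Among receptors, both chains of the IL-6 receptor were members. Il6ra, the ligand-binding chain (chr3:89869324-89913196), stood at 356, 321 and 269 CPM in healthy blood, 469, 522 and 554 CPM in LLC blood and 149, 154 and 162 CPM in LLC tumor. The 3 groups did not overlap, and tumor was the lowest, an order of the means that the rule sets here. Il6st, the shared signalling chain gp130 (chr13:112464070-112506860), stood at 119, 122 and 115 CPM in healthy blood, 225, 280.3 and 251 CPM in LLC blood and 82.3, 133 and 123 CPM in LLC tumor. Its tumor libraries spanned the healthy blood range. Il31ra, the IL-31 receptor chain encoded beside Il6st on chromosome 13, stood at 5.86, 5.65 and 5.21 CPM in healthy blood, 15.3, 14.2 and 17.3 CPM in LLC blood and 5.87, 7.18 and 8.73 CPM in LLC tumor. Sorl1, a sorting receptor of the endosome (chr9:41964709-42124297), stood at 247, 264 and 226 CPM in healthy blood, 677, 775 and 794 CPM in LLC blood and 301, 350.1 and 378 CPM in LLC tumor, so that every tumor library lay above every healthy one and below every LLC blood one. Insr, the insulin receptor, had means of 76.6, 118 and 44.2 CPM, and Megf9, a membrane protein with EGF-like domains, of 12.7, 39.2 and 9.01 CPM. Low-level members were Adgrg5, Gpr15, Fzd4, Gria3 and Tnfrsf13b, with LLC blood means of 10.1 to 17.1 CPM. Of 26 tested cytokine receptor genes that are not members, 4 rose and 4 fell in LLC blood and 9 rose and 7 fell in tumor against LLC blood. Il4ra, the IL-4 receptor chain, had means of 145, 324 and 667 CPM, in the same order of groups, and rose in both comparisons.

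The group with the most members with an assigned role, 20, was that of regulators of small GTPases and cytoskeletal proteins. Roles were assigned to members alone, after values were seen. The share of such genes among all genes was therefore not counted, and whether 20 is more than that share was not tested. Akap13, a GTPase exchange factor and kinase anchor (chr7:75455526-75754609), stood at 625, 595 and 510.5 CPM in healthy blood, 849, 963 and 967 CPM in LLC blood and 219, 255 and 249 CPM in LLC tumor. Dock8, an exchange factor for Cdc42 needed for leukocyte migration, stood at 406, 382 and 345 CPM in healthy blood, 594, 607 and 605 CPM in LLC blood and 242, 236 and 243 CPM in LLC tumor. Arhgef37, a further exchange factor, stood at 234, 209 and 172 CPM in healthy blood, 307, 323 and 356 CPM in LLC blood and 22.6, 32.6 and 34.7 CPM in LLC tumor. In each of these the tumor libraries were the lowest and no groups overlapped, the order of the means being set by the rule. A430078G23Rik, a synonym of the exchange factor gene Arhgef18 in RefSeq (chr8:3353338-3456601), stood at 15.4, 13.4 and 11.5 CPM in healthy blood, 38.3, 32.8 and 36 CPM in LLC blood and 1.26, 2.13 and 3.11 CPM in LLC tumor and had the lowest ratio of tumor to LLC blood of all members, 0.0863. The table also holds Arhgef18 as an entry of its own, with most of the counts and no rise of 1.5-fold. Together the 2 entries had means of 151 ± 8.36, 183 ± 13.3 and 23.4 ± 10.5 CPM. That sum was 1.21 times as high in LLC blood as in healthy blood, which does not meet the rule, and 0.133 times as high in tumor as in LLC blood. Dock10 had means of 261, 419 and 208 CPM and was the member closest to the tumor limit. Arhgap26, which switches small GTPases off, had means of 218, 357 and 117 CPM, and Iqgap2, an actin scaffold, of 196, 351 and 74.5 CPM. Fam65b, named Ripor2 in RefSeq, had means of 95.7, 176 and 23.9 CPM, and Ccdc88c, an activator of G protein signalling, of 166, 325 and 52.1 CPM. The tumor means of these 5 genes lay below their healthy blood means, as the rule requires at a rise of less than 2-fold. Nin, a centrosome protein, had means of 225, 425 and 174 CPM, and Tppp3, which binds microtubules, of 237, 424 and 101 CPM. Across the 20, the ratio of tumor to LLC blood ran from 0.0863 to 0.497 with a median of 0.273, and that of LLC blood to healthy blood from 1.53 to 2.55.

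**Figure D1:**
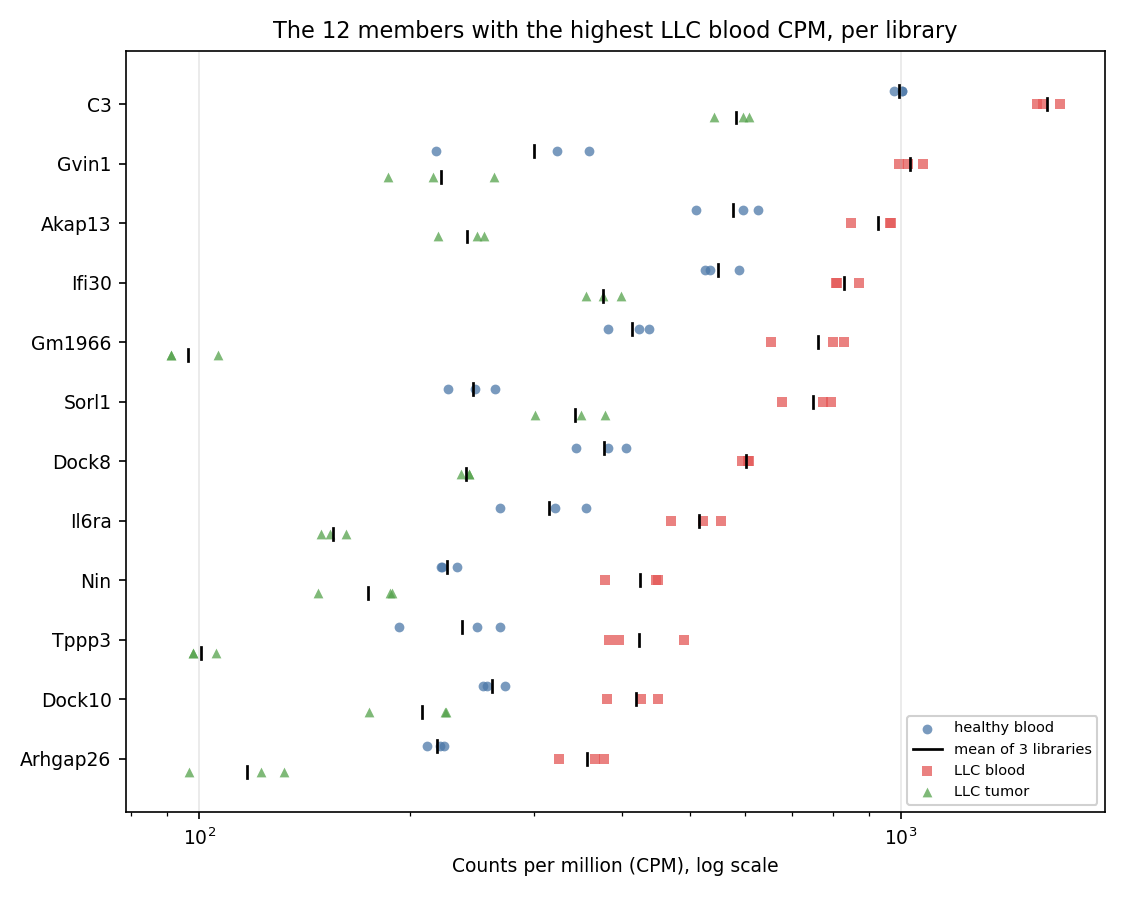
CPM on a log scale in each of the 9 libraries for the 12 members with the highest LLC blood mean, with each group's mean as a black bar. LLC blood libraries stand to the right of all others in every row, by the choice of the members. Tumor lies left of healthy blood for Gm1966 and Akap13, whose order of means the rule sets, but right of it for Sorl1.

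Kinases, phosphatases and adaptors held 10 members. Bmx, a Tec family tyrosine kinase, stood at 30.5, 30.4 and 33.4 CPM in healthy blood, 45.9, 57.9 and 54.2 CPM in LLC blood and 4.42, 8.16 and 7.43 CPM in LLC tumor, with every tumor library below every healthy one. At its rise of less than 2-fold the rule sets this order of the means. Every tumor library also lay below every healthy one in 51.5% of all genes with an LLC blood mean of at least 10 CPM. Pag1, a membrane adaptor that restrains Src kinases, had means of 90.4, 162 and 52.1 CPM. Map3k6, which is also in a list of glucocorticoid-induced genes, had means of 17.4, 28.7 and 8.3 CPM. Of the other 24 tested genes of that list, 3 rose and 3 fell in LLC blood, and 16 rose and 5 fell in tumor against LLC blood.

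Membrane transport and lipid enzymes held 15 members. Itpr1, an inositol trisphosphate-gated calcium channel, had means of 147, 253 and 66.8 CPM and Slc8a1, a sodium-calcium exchanger, of 118, 183 and 50.7 CPM. Tumor was lowest in both, as the rule requires at a rise of less than 2-fold. Cers6, a ceramide synthase, stood at 88.8, 88.3 and 77 CPM in healthy blood, 212, 241 and 249 CPM in LLC blood and 99.7, 96.5 and 92.3 CPM in LLC tumor, with all tumor libraries above all healthy ones. Slc52a3, a riboflavin transporter, had means of 2.66, 15.4 and 5.15 CPM, also with tumor above healthy blood. The trafficking genes Vps13c, a lipid transfer protein, and Lyst, which governs lysosome size and is mutated in Chediak-Higashi syndrome, had means of 96.6, 317 and 101 CPM and of 87.3, 250.5 and 100.4 CPM. Among regulators of chromatin, DNA repair and RNA, Kat6a, a histone acetyltransferase, had means of 133, 236 and 111 CPM, and Prkdc, the catalytic subunit of DNA-dependent protein kinase, of 20.3, 40.3 and 19.3 CPM. In this group of 9 the ratio of LLC blood to healthy blood stayed between 1.55 and 1.95.

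Interferon-inducible and intracellular defence genes were members through some copies of gene families and not others. Gvin1, a very large interferon-inducible GTPase (chr7:106156535-106215340), stood at 217, 323 and 359.7 CPM in healthy blood, 992, 1074 and 1022 CPM in LLC blood and 215, 186 and 263 CPM in LLC tumor. Its neighbour Gm1966 (chr7:106595549-106644646), of the same family, stood at 383, 437 and 423 CPM in healthy blood, 653, 799 and 829 CPM in LLC blood and 107, 91.2 and 91.1 CPM in LLC tumor. Another gene of the family, Gm4070, went the other way in blood, at 559, 621 and 492 CPM in healthy blood and 134, 122 and 183 CPM in LLC blood. Summed over 6 Gvin genes, the group means were 1339 ± 123, 1988 ± 133 and 372 ± 48.2 CPM (SD, n = 3). The sum was 1.48 times as high in LLC blood as in healthy blood, just under the limit, and 0.187 times as high in tumor as in LLC blood. All deposited counts of Gvin1 and Gm1966 were not whole numbers, as counts split among genes that share reads are, so the copy that reads belong to is uncertain while their sum is less so.

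Naip7, a member of the family of cytosolic sensors of bacterial flagellin and secretion proteins, had the largest ratio of all members in blood, 26.5. It stood at 1.74, 1.33 and 1.14 CPM in healthy blood, 43.2, 72.3 and 73 CPM in LLC blood and 21.4, 21.3 and 17.4 CPM in LLC tumor. Its relatives took more of the family's counts. Naip2, Naip5 and Naip6 held 256, 265 and 192 CPM in LLC blood 1, and the sum of the 5 Naip genes was 635 ± 36.3, 762 ± 24.5 and 427 ± 11.3 CPM. That sum was 1.2 times as high in LLC blood as in healthy blood and 0.56 times as high in tumor as in LLC blood, so the family did not meet the rule. The members Slfn3, Slfn9, Pnp2 and Psme2b likewise fell short of the 1.5-fold limit in LLC blood when summed with close relatives. Slfn3 with Slfn4 summed to 190.5, 186 and 744 CPM, Pnp with Pnp2 to 479, 469 and 222 CPM, and Psme2 with Psme2b to 210.4, 207 and 119 CPM, in the order healthy blood, LLC blood, tumor.

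For a group of 4 immunity-related GTPase genes the sum met the rule. 9930111J21Rik1, an immunity-related GTPase on chromosome 11 (chr11:48946150-48979381), stood at 23.8, 28.6 and 22.6 CPM in healthy blood, 213, 244 and 267 CPM in LLC blood and 31.7, 31.3 and 35 CPM in LLC tumor. Summed with 9930111J21Rik2, Tgtp1 and Tgtp2, it had means of 148 ± 33.3, 297 ± 20.2 and 65.1 ± 16.5 CPM and met the rule. The sum covers these 4 genes alone. Tgtp2 and Tgtp1 did not share this rise. Tgtp2 went from 77.6, 123 and 89 CPM in healthy blood to 23, 15.6 and 18.8 CPM in LLC blood, and Tgtp1 from 1.98, 10.3 and 5.90 CPM to 2.01, 0.65 and 0.482 CPM. Ifi30, a lysosomal thiol reductase of antigen processing, stood at 534, 588 and 525 CPM in healthy blood, 807, 872 and 811 CPM in LLC blood and 398, 376 and 356 CPM in LLC tumor and was near the lower limit of the rise, at 1.51. Eif2ak2, the double-stranded RNA sensor PKR, had means of 101, 156 and 66.8 CPM. Summed with Gm6548, which overlaps it, the means were 196, 230 and 101 CPM. That sum was 1.17 times as high in LLC blood as in healthy blood, short of the 1.5-fold limit. None of the 40 genes of a list of classical interferon-stimulated genes was a member: 6 fell in LLC blood, and 7 rose and 15 fell in tumor against LLC blood. Of 11 tested MHC class II presentation genes other than Ifi30, 5 fell in LLC blood, in cells that were sorted as MHC-II-.

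Zinc finger genes gave 13 members by assigned role. A cluster of such genes on chromosome 2 (chr2:175275125-178035859) held 6 members. Of these, Gm14440, Gm6710 and Gm14326 had no role assigned and are not among the 13. The highest CPM among these 6 was that of Etohi1, named Zfp971 in RefSeq, which stood at 51.6, 68.6 and 54.6 CPM in healthy blood, 213, 234 and 267 CPM in LLC blood and 33.3, 35.5 and 34.7 CPM in LLC tumor. All 24 genes of the cluster together had means of 182 ± 26.3, 461 ± 57.4 and 127 ± 31.2 CPM. The sum was 2.52 times as high in LLC blood as in healthy blood and 0.277 times as high in tumor as in LLC blood. The rule thus held for the sum, whichever of these 24 genes the reads came from. Reads shared with genes outside the cluster were not examined. Zfp871 had means of 153, 241 and 115 CPM and Klf3, a transcriptional repressor of the Krüppel-like family, of 85.5, 162 and 65.3 CPM. Of 296 tested genes with symbols starting in Zfp that are not members, 33 rose and 9 fell in LLC blood, and 49 rose and 151 fell in tumor against LLC blood. Outside the zinc finger families, Foxn3, a forkhead repressor, stood at 14.5, 13 and 13.1 CPM in healthy blood, 54.6, 57.1 and 57.2 CPM in LLC blood and 26.1, 27.1 and 24.5 CPM in LLC tumor, with tumor between the blood groups.

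Several members share their position with another gene. In all, 67 members overlap another annotated gene of any type on either strand, and 42 overlap one that is in the table. With the overlapping genes added, 28 of the 42 sums were still at least 1.5 times as high in LLC blood, and 35 were at most 0.5 times as high in tumor. Ddi2, a retroviral-like protease that activates the transcription factor Nrf1, stood at 34.6, 41.5 and 28.6 CPM in healthy blood, 148, 221 and 228 CPM in LLC blood and 72.1, 101 and 90.1 CPM in LLC tumor. Ddi2 and Rsc1a1, which overlap, summed to 75.1 ± 7.44, 229 ± 41 and 109 ± 11.7 CPM and met the rule. Gm21975 summed with Evi2a and Evi2b, and Gm38431 with Raver1 and Fdx1l, had sums that were not higher in LLC blood, and Gm38431 had no counts in tumor 1. The strand setting of the counting is not given in the sources used here, so reads of overlapping genes on opposite strands cannot be told apart.

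**Figure D2:**
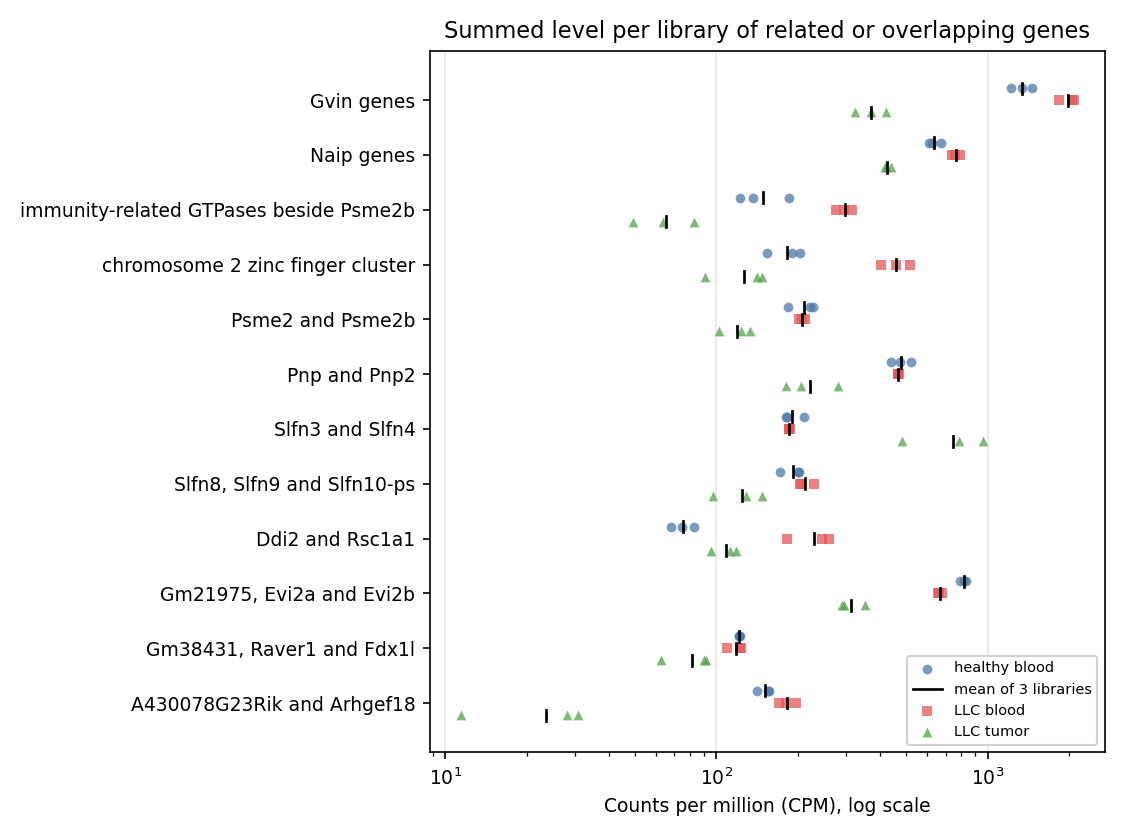
Summed CPM on a log scale in each of the 9 libraries for 12 groups of related or overlapping genes that hold a member, with group means as black bars. The sums for 4 immunity-related GTPases, the chromosome 2 zinc finger cluster and Ddi2 with Rsc1a1 met the rule. That of A430078G23Rik with Arhgef18 did not, and that of Slfn3 with Slfn4 was highest in tumor.

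Other members had no role assigned. Nhsl2, of the Nance-Horan syndrome protein family, stood at 203, 197 and 169.5 CPM in healthy blood, 329, 341 and 343 CPM in LLC blood and 29.3, 46.8 and 48.9 CPM in LLC tumor. 2010016I18Rik, a long noncoding RNA (chr3:106481986-106485913), stood at 3.5, 3.32 and 3.17 CPM in healthy blood, 9.08, 12.4 and 8.89 CPM in LLC blood and 0.0903, 0.532 and 0.432 CPM in LLC tumor, and Bex6 had means of 4.85, 10.3 and 0.591 CPM. Ccnb2, a mitotic cyclin, stood at 2.93, 7.06 and 14.6 CPM in healthy blood, 16.3, 52.8 and 42.3 CPM in LLC blood and 3.43, 13.6 and 14.4 CPM in LLC tumor, with the widest spread among LLC blood libraries of all members, a factor of 3.25. Of 39 other tested cell cycle genes, 0 were called in LLC blood against healthy blood by edgeR. At an unadjusted edgeR p under 0.05, 10 were higher and none was lower, and the median log2 fold change of the 39 was 0.47. At that threshold 2331 of all 12202 tested genes that are not members were higher and 2072 lower, with a median of -0.01. By type, 128 members were protein coding and 5 were long noncoding RNAs in RefSeq, in which 133 of the 135 were found. The median gene span was 40.2 kb in the members, 68.6 kb in the 582 raised genes that are not members and 23.8 kb in the 8273 genes with an LLC blood mean of at least 10 CPM. Spans of 100 kb or more made up 27.1%, 31.8% and 10.9% of them.

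Levels in tumor were then compared with those in healthy blood, a contrast that the rule did not use directly. It still bound the result through LLC blood. A member raised less than 2-fold in LLC blood had to have a tumor mean below its healthy blood mean, and 92 of the 135 members were of this kind. For these, log2 fold changes are given with standard errors as a description. The other 43 members were raised at least 2-fold, and for them the rule put the same upper limit on tumor and on healthy blood, so that either could be higher.

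**Figure D3:**
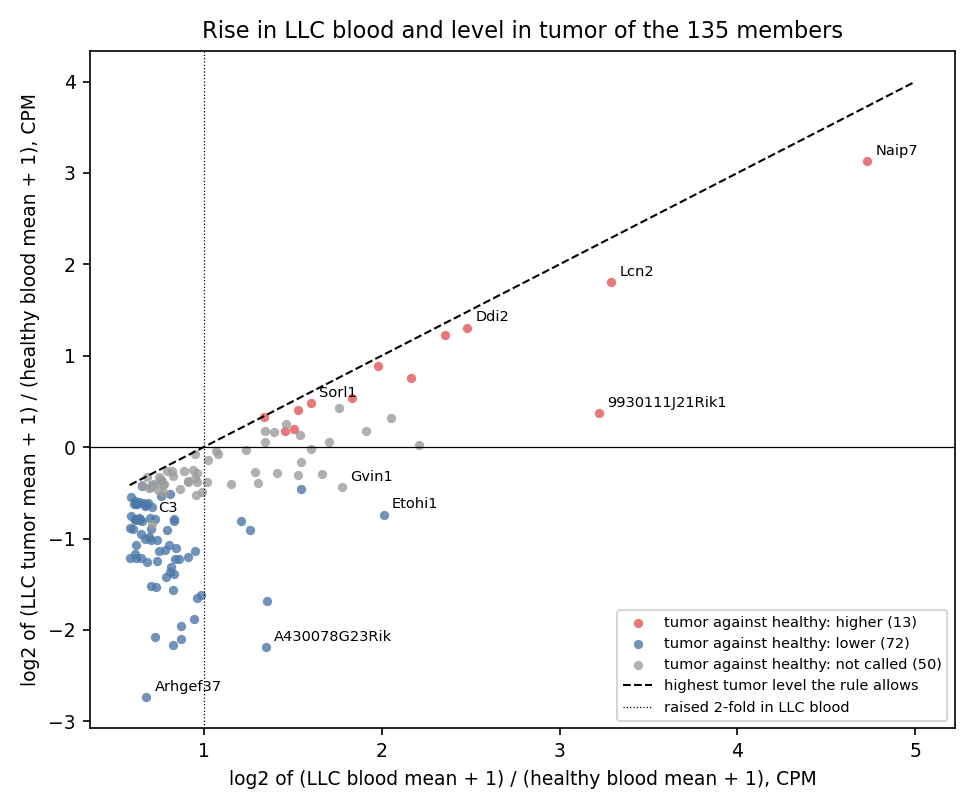
Each point is a member: the x axis is the log2 ratio of LLC blood to healthy blood and the y axis that of LLC tumor to healthy blood, from group mean CPM plus 1. Left of the dotted line (a 2-fold rise) the rule leaves room only below 0, which holds 92 members; right of it 13 members were called higher in tumor and 6 lower.

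Among the 43 members free to go either way, 13 (30.2%) were higher in tumor than in healthy blood, 6 (14%) were lower and 24 were not called. Over all 12337 tested genes, 33.5% were called higher and 33% lower. Over the 8273 genes with an LLC blood mean of at least 10 CPM, the shares were 29.2% and 38.6%. The median log2 fold change was 0.21 over the 43 members and -0.10 over those 8273 genes. All adjusted p-values here are from the edgeR model of the 9 libraries. Its estimates use TMM scaling and can differ in sign from the CPM means where a change is small: with library totals alone the median over all tested genes was -0.17, against -0.00 with TMM.

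The largest excess over healthy blood was that of Naip7, with a log2 fold change of 4.01 ± 0.28 (SE, adjusted p = 2.6e-06), which rests on a copy within a family whose sum was lower in tumor. Lcn2 followed at 2.10 ± 0.47 (adjusted p = 0.0032). Ddi2 had 1.49 ± 0.18 (adjusted p = 7.2e-05) and Foxn3 had 1.11 ± 0.11 (adjusted p = 1.8e-05). Pdpr, a regulatory subunit of pyruvate dehydrogenase phosphatase, and Slc52a3 were higher by 1.60 ± 0.28 and 1.12 ± 0.31. Sorl1, with the highest CPM of the 13, was higher by 0.65 ± 0.10 (adjusted p = 0.00029), and Il31ra by 0.54 ± 0.15 (adjusted p = 0.01). The other 5 were 3110021N24Rik, Zfp398, 9930111J21Rik1, Lyst and Cers6, with log2 fold changes of 0.37 to 0.87. Counts of 9930111J21Rik1 were not whole in any of the 9 libraries. The sum of its group of 4 GTPase genes was lower in tumor, at 65.1 CPM, than in healthy blood, at 148 CPM. In these 13 genes the level in tumor was intermediate, above healthy blood and below LLC blood. Of the 13, 8 had whole counts in every library.

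The 6 members of this group that were lower in tumor than in healthy blood were 2010016I18Rik, A430078G23Rik, Gria3, Zfp607, Etohi1 and Megf9. The change was -3.06 ± 0.37 for 2010016I18Rik (adjusted p = 7.0e-05) and -2.46 ± 0.22 for A430078G23Rik (adjusted p = 1.0e-05), whose RefSeq gene has a further entry in the table. Etohi1 had -0.58 ± 0.13 (adjusted p = 0.0036). In a fit of the 6 libraries compared alone, 3 of the 43 members were called lower.

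Among the 24 not called, Il6st differed by 0.08 ± 0.11, C1rl by -0.01 ± 0.12, Gvin1 by -0.26 ± 0.20, Vps13c by 0.21 ± 0.14 and Fam129a by 0.03 ± 0.09. Prtn3, Lbp and Fcnb, whose libraries varied more, differed by 0.16 ± 0.32, 0.12 ± 0.31 and 0.36 ± 0.29. A missing call does not show that tumor and healthy blood were equal.

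**Figure D4:**
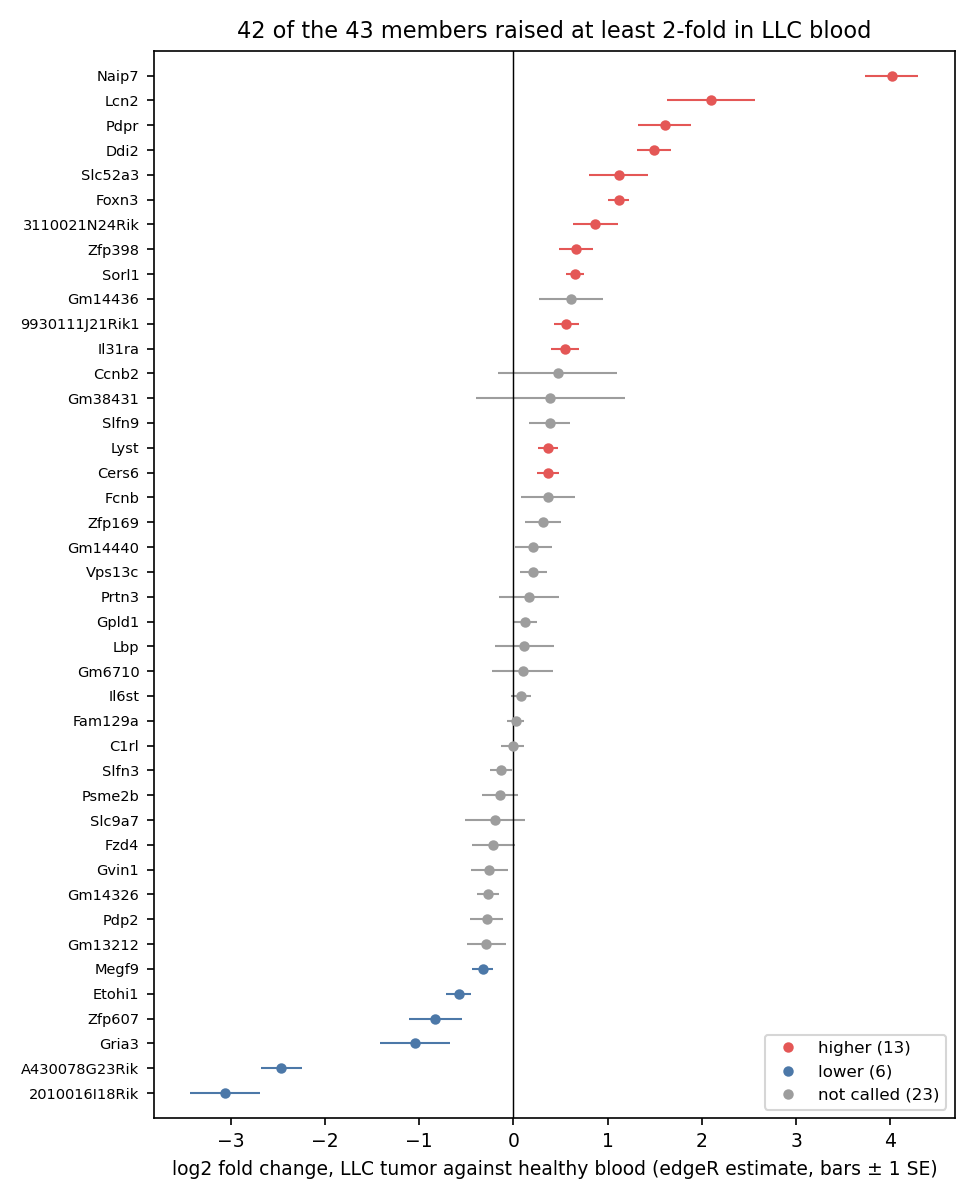
The edgeR log2 fold change of LLC tumor against healthy blood for 42 of the 43 members raised at least 2-fold in LLC blood, with bars of 1 standard error. The estimates run from -3.06 for 2010016I18Rik to 4.01 for Naip7, and 23 of those drawn, in grey, were not called.

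The 92 members raised less than 2-fold differed in how far below healthy blood they lay. Their median log2 fold change was -0.63, with Prkdc alone above 0 after TMM scaling, at 0.07 ± 0.17. Arhgef37, at -2.62 ± 0.14, Bmx, at -2.08 ± 0.15, Nhsl2, at -2.03 ± 0.12, Gm1966, at -1.92 ± 0.16, and Fam65b, at -1.84 ± 0.13, lay far below healthy blood. Akap13 had -1.09 ± 0.10, Il6ra -0.85 ± 0.12, C3 -0.59 ± 0.12, Dock8 -0.47 ± 0.11 and Ifi30 -0.36 ± 0.12. Nin, Dock10 and Kat6a lay close to healthy blood, at -0.20 ± 0.08, -0.16 ± 0.08 and -0.10 ± 0.10. Of the 20 GTPase regulator and cytoskeleton members, 19 were raised less than 2-fold. In the secreted and innate group of 8, 6 were raised at least 2-fold. Counting all 135 members, 13 were called higher and 72 lower, of which 66 had their direction set by the rule.

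The number of members moved with single libraries. Applied without a library in turn, the rule gave 122 to 183 members, of which 120 to 134 were among the 135. The largest set, 183, came without LLC blood 1, and 88.5% of those genes had LLC blood 1 on the same side of both other groups. With any other library left out, that share was 97% to 100%. Over all 8511 genes that average 10 CPM or more it was 24.2% to 67.3%.

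Members near a limit had close neighbours outside it. Tnfrsf13b, at 10.1 CPM in LLC blood, and 2010016I18Rik were just inside the level limit, and Nup210l, at 9.67 CPM, and Gca were just outside. I830077J02Rik and Sh2d1b1 were just inside the blood ratio at 1.502 and 1.503, and Bcl11a, at 1.498, and Amer1 were just outside. Dock10 and Il31ra were just inside the tumor ratio, both at 0.497, and Dopey1, at 0.500031, and Ppp1r3d were just outside. Gm15441 and Stk26 were just inside the limit on overlap with healthy blood, and Gm3435 and Arhgap19 were just outside. Gm38431 and Lcn2 were just inside the limit on overlap with tumor. Abca13 and Lrg1 met all conditions but that one, and Lrg1, a secreted glycoprotein, had means of 2.75, 100.2 and 47 CPM for the healthy blood, LLC blood and tumor groups.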

How the data were processed

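RNA-seq of sorted Ly6C-high monocytes was measured in 9 libraries, 3 in each of healthy blood, LLC blood and LLC tumor. RNA taken with TRIzol was made into TruSeq libraries and read on a HiScanSQ sequencer, per the labels' protocols. The authors deposited a table of expected counts (estimated counts, not normalized) for 24411 entries. Per the submitters' processing notes, tools used in the series include Trim Galore, cutadapt 3.4, STAR 2.6.1d, Salmon 1.9.0 and edgeR, with mm10 as the genome build, and which steps made this table is not given in the sources used here. Between 8.56% and 9.73% of values per library were not whole. These shares are over all entries of the count table and do not describe the members. Among the members, 46 had counts that were not whole in at least 1 library, and 26 in every library. Of the members raised at least 2-fold, 20 had counts not whole in at least 1 library and 23 had whole counts in every library. For members with counts that are not whole, the gene that reads belong to is uncertain. The deposited CPM values of 10693 genes, which hold 107 of the members, were whole multiples of a read in 100% of cases (tolerance 0.01 reads) and served as an alternative. Those reads equalled the rounded counts in 100% of cases, so this alternative uses the same counts for fewer genes.

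CPM was computed per library over all entries. Counts were rounded and fitted with edgeR 4.0.16 (R 4.3.3) in a quasi-likelihood model of the 9 libraries with group as the term, TMM scaling and the filterByExpr filter, which kept 12337 genes and all 135 members. Genes were called at a Benjamini-Hochberg adjusted p under 0.05 within each comparison. The fit was tested on simulated data with known changes. Group means are given with SD and fold changes with SE, n = 3. The floor of 3 counts covers counting error only.

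The members, lists, marker lists and tests were chosen with earlier results of these data known. Genes named were the members with the highest LLC blood CPM, those with the largest ratio in either direction, those called with the largest change between tumor and healthy blood, up to 5 members of each list by LLC blood CPM, and the genes nearest each limit. The values of 1 member that is counted in the totals are not reported here. Roles, gene families, the other members named by role, the list genes that are not members, and the split of the members at a 2-fold rise were chosen after values were seen. Coordinates, spans and promoters are from RefSeq GRCm38.p6, matched by symbol or synonym. Replicate numbers were not treated as pairs, since not every same-numbered pair correlated above 0.1 in its deviations: the values were 0.08, 0.05 and 0.09 for healthy blood with tumor, 0.30, 0.18 and 0.07 for healthy blood with LLC blood, and -0.08, 0.12 and -0.14 for LLC blood with tumor.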

Additional observations from a re-analysis of the deposited data

How the results depend on the processing

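The rule gave 43 genes when a 2-fold rise was asked for and 253 with 1.5-fold limits both ways. With TMM library sizes the rule gave 110 genes and with upper-quartile sizes 99, all of them among the 135. Other added constants, level limits and a rule that allows overlap gave 101 to 149, and leaving out a library gave 122 to 183. Of the 135 members, 11 to 16 were higher in tumor than in healthy blood and 65 to 78 lower with a library left out, beside 7571 to 9423 calls over all genes. For the 43 members raised at least 2-fold, these ranges were 11 to 16 higher and 4 to 7 lower. With a log2 fold change of at least 1 asked for, 6 members were higher and 32 lower, 3 of the 43 were lower, and 3989 genes were called in all. Among the 43, 3 were also lower with only the 6 libraries compared and at an adjusted p under 0.01, and 2 with the reads of the deposited CPM table, which holds fewer genes. In other cases the cause was not tested. With the replicate number as a block, 14 members were higher and 73 lower, with 8092 calls in all. With library totals alone as scaling, 10 were higher and 82 lower, the median over all genes moved to -0.17, and 40.6% of all calls were higher, against 50.4%. Among the named members, the call of Pros1 was lost in 9 alternatives, that of Ifi30 in 5, those of Tnfrsf13b and Zfp607 in 4 each and that of Il31ra in 3. Calls of lower were gained for Nin in 9, Zfp871 in 8, and Dock10 and Klf3 in 3 each. No named member changed direction in an alternative where that fit or the main fit called it. Changes of sign without a call were not counted. At the lowest levels named, under 1 CPM, a few counts set the value.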
